A study of Mus musculus with 4 samples.

Results

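The genes described here copy the genome or supply the building blocks for it. They are 44 mouse genes taken from a list by symbol, and all 44 were found among the 54446 genes of the deposited table. They were sorted by known role into 10 groups: the MCM2-7 helicase (6 genes), helicase activation (6), licensing (4), polymerases and primase (9), the sliding clamp and its loader (6), single-strand binding (3), Okazaki fragment maturation (2), fork protection (1), nucleotide supply (5) and chromatin assembly (2). All 44 had an FPKM above 0 in all 4 libraries and so were among the 17787 genes kept for the comparisons.

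RNA was sequenced from 3D cultures of sorted mammary gland cells of wild type C57BL/6 mice. The cells were sorted on CD24 and CD29, labelled basal or luminal and grown in Matrigel under medium with DMSO, the solvent control, or with 100 μM baicalin, a flavonoid from Scutellaria roots. There was 1 library for each of the 4 combinations, and the number of animals behind each culture and the day of harvest are not given in the sources used here. By the study's methods, glands for primary cells came from virgin females aged 6 to 9 weeks or from other females at given stages. The study asked how baicalin changes the transcriptome of both cell types.

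Before S phase, the origin recognition complex, Cdc6 and Cdt1 load the MCM2-7 ring onto DNA, a step called licensing. Cdc45 and the GINS complex then turn the ring into a working helicase, primase and the polymerases copy both strands, and Pcna, a ring placed by the RFC complex, keeps the polymerases on the template. Many of these genes are known targets of E2F transcription factors, which drive them as cells enter S phase, so their RNA is high in dividing cells and low in resting cells. In bulk RNA, fewer replicating cells and less RNA in each cell cannot be told apart.

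The labels and the cell markers did not match. Keratin 5, a basal keratin, stood with DMSO at 128 FPKM under the basal label and at 2015 FPKM under the luminal label, and smooth muscle actin Acta2 stood at 7.66 and 555 FPKM. All 10 basal markers were higher in the luminal-labelled than in the basal-labelled library, with DMSO and with baicalin, and all 10 luminal markers were lower. Over all genes kept, 52.5% were higher in the luminal-labelled library with DMSO and 45.2% with baicalin. Hormone-sensing luminal markers were split, with 4 of 6 higher in the luminal-labelled library with DMSO, among them Pgr, the progesterone receptor, at 1.08 and 4.81 FPKM under the basal and the luminal label, and 3 of 6 with baicalin. The libraries are therefore named by their labels only. FPKM is the number of fragments of a gene divided by its exon length and by the depth of the library. Recovered depth was 19356099 to 20648790 fragments, and between 25 and 4985 fragments lay behind each value of the 44 genes. Changes are given as log2((FPKM + 1)/(FPKM + 1)), baicalin over DMSO unless stated, which understates the change of low genes, and a change beyond 1 on this scale was taken as past the threshold. Folds are plain FPKM ratios with exact 95% Clopper-Pearson intervals, which cover counting error only. With 1 library per condition there is no replicate check and no test. The effect of baicalin and any other difference between 2 cultures cannot be told apart.

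All 44 genes were lower with baicalin in the basal-labelled libraries, and all 44 were lower in the luminal-labelled libraries. Over all genes kept, 49.1% were lower in the basal-labelled pair, 54.4% in the luminal-labelled pair and 31.4% in both. In the basal-labelled pair 29 of the 44 fell past the threshold, where 3.33% of all genes did, and 4.66% of those with at least 5 FPKM in a library of the pair. The median log2 change of the 44 was -1.23, with a range of -2.62 to -0.36, against 0.01 over all genes. In the luminal-labelled pair 5 of the 44 fell past the threshold, where 1.59% of all genes did, and 2.22% of those with at least 5 FPKM. The median was -0.67, with a range of -1.14 to -0.06, against -0.02 over all genes. As plain ratios the median gene stood 3.02-fold lower in the basal-labelled pair and 1.71-fold lower in the luminal-labelled pair. The ratio interval lay below 1 for 44 genes in the first pair, where 26.3% of all genes did, and for 43 in the second, where 28.7% did. Intervals narrow with more fragments. Of the genes with at least 5 FPKM in a library of the pair, 3198 of 8484 and 3340 of 8423 had an interval below 1.

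Summed over the 44 genes, FPKM were 590 with DMSO and 238 with baicalin in the basal-labelled libraries, and 676 and 397 in the luminal-labelled libraries. As a share of all fragments of a library, the fragments of the 44 genes together were 2.64-fold fewer with baicalin in the basal-labelled pair and 1.735-fold fewer in the luminal-labelled pair. Both DMSO libraries therefore stood above both baicalin libraries, and the basal-labelled baicalin library was the lowest.

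**Figure D1:**
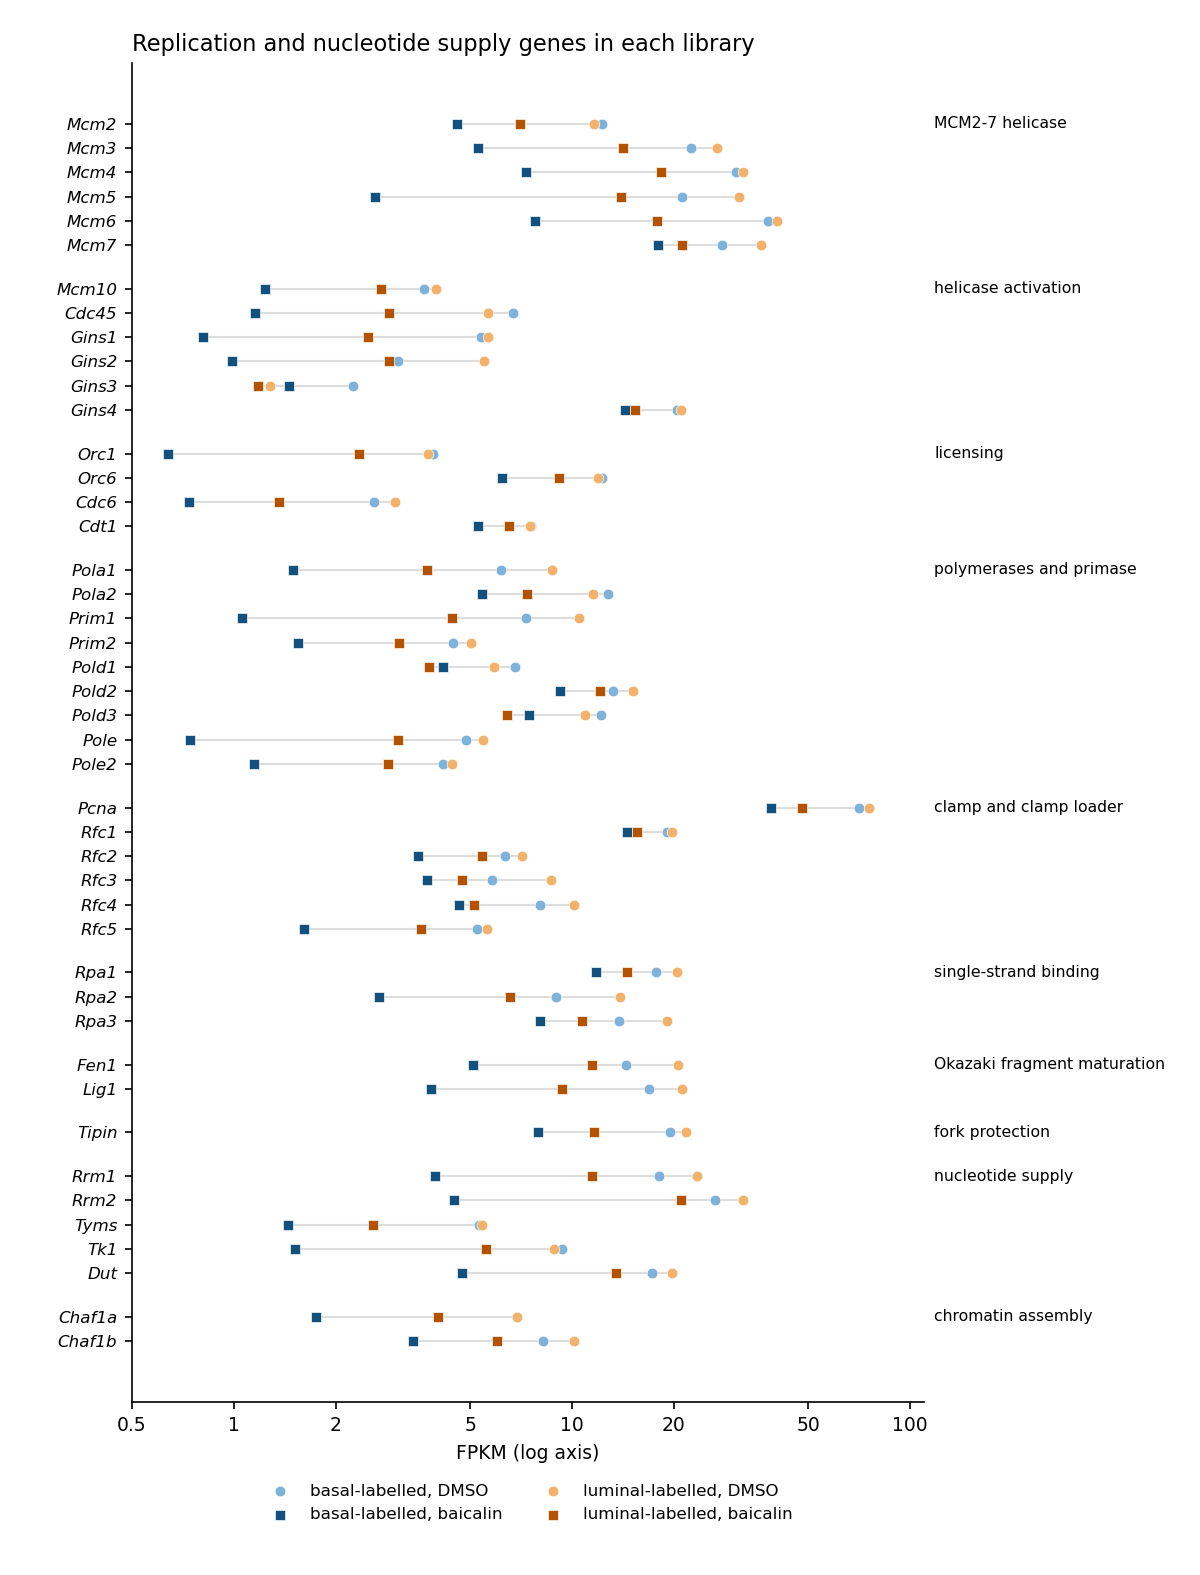
FPKM of the 44 genes (log axis) in the 4 libraries, one row per gene, grouped by role; circles are DMSO and squares are baicalin, each point 1 library. In every row the dark blue square lies left of the light blue circle and the brown square lies left of the orange circle, and in 41 of the rows the dark blue square lies left of the brown one.

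The genes lower by more than 1 in both pairs were Mcm5, Mcm6, Pola1, Prim1 and Lig1, and 0.455% of all genes kept were. Without the pseudocount, Gins1, Cdc6, Rpa2, Rrm1 and Tyms were also lower by more than 1 in both pairs. Promoters are shown for the 3 of the first-named genes with an E2F word in the 170 bases before the RefSeq transcription start (GRCm38.p6). The 3 were picked by these same changes and by the word, and a link between words and changes was not tested. Capitals mark E2F words (TTTCCCGC, TTTGGCGC, TTTCGCGC or TTTGCCGC) and the word CCAAT, each on either strand. The windows are chr8:75109339-75109508 on the plus strand for Mcm5, chr1:128359706-128359875 on the minus strand for Mcm6 and chrX:93632156-93632325 on the minus strand for Pola1, each written 5′ to 3′ along its gene. No annotated exon overlaps them.
Mcm5: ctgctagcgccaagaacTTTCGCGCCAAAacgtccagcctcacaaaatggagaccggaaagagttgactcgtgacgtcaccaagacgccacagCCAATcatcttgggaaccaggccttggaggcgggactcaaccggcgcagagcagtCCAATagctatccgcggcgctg
Mcm6: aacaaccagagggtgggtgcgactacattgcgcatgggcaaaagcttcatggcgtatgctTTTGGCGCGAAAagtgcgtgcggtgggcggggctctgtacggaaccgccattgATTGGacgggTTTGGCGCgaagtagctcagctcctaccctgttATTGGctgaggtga
Pola1: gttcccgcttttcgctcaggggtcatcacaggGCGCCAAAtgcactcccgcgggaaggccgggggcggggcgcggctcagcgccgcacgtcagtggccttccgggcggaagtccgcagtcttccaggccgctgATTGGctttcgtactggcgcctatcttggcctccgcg

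Mcm5 held 2 E2F words that share 4 bases, starting at -153 and -149 from the start, and Mcm6 held 3, of which those at -110 and -106 overlap and the other lies at -47. Pola1 held 1, at -138. Over windows of 250 bases before to 50 after a start, 36 of the 44 genes had a promoter in the RefSeq table, and 14 of these (38.9%) held an E2F word. The share was 2.6% over 27025 genes of the table and 5.13% over 6759 protein-coding genes with at least 5 FPKM in a library. CCAAT was present in 22 of the 36 (61.1%), against 41.1% and 42.2%. An E2F word and CCAAT can share a base, as in Mcm7, where they span 17 to 24 and 24 to 28 after the start.

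The changes of genes with and without an E2F word are set side by side as a description only, and a link was not tested. In the basal-labelled pair the median log2 change was -1.16 for the 14 genes with an E2F word, 8 of them past the threshold, and -1.25 for the 22 without one, 15 of them past it. In the luminal-labelled pair the medians were -0.75 and -0.65, with 4 and 1 past it. In the basal-labelled pair the changes ran from -2.62 to -0.40 with a word and from -2.33 to -0.36 without one. In the luminal-labelled pair they ran from -1.14 to -0.06 and from -1.09 to -0.30. A match is only a match of letters, and only the words named above were looked for, so lacking one does not show that a gene lacks an E2F site.

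**Figure D2:**
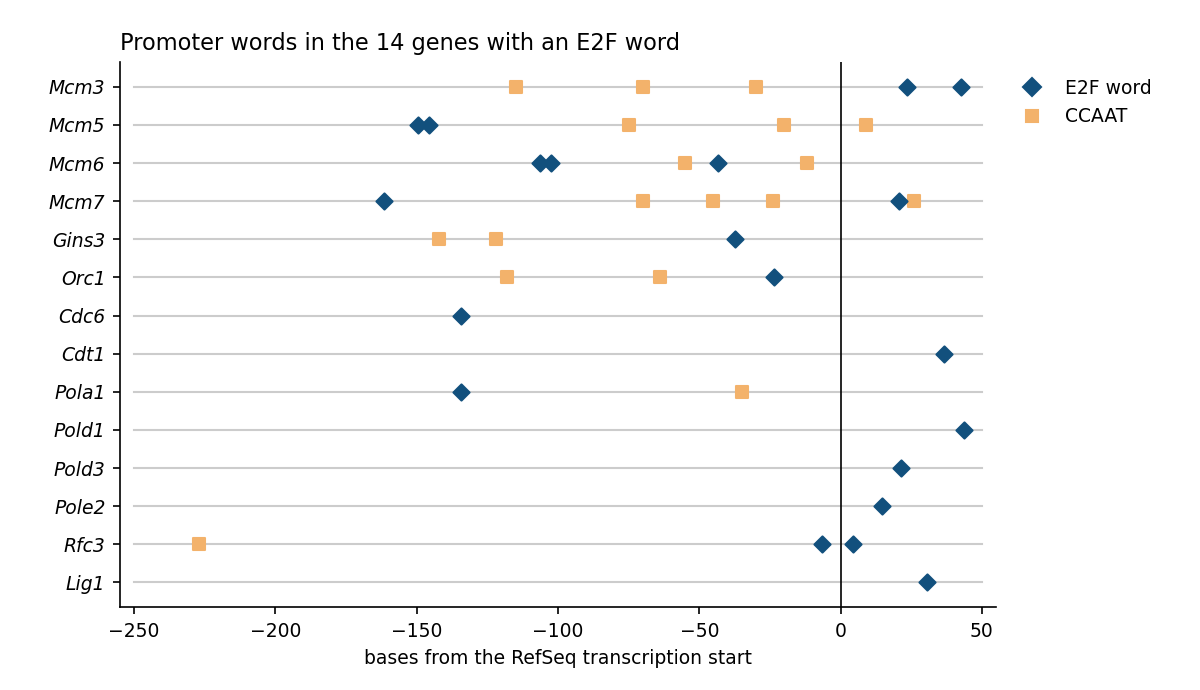
Positions of E2F words (diamonds) and CCAAT (squares) in the promoter windows of the 14 genes with an E2F word, in bases from the RefSeq start; each grey line is 1 window from 250 before to 50 after the start. In 8 genes a word begins before the start, and in the other 6 the words lie only after it.

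The MCM2-7 helicase, the ring that unwinds DNA at the fork, showed the deepest falls among the groups of 6 or more genes. Its summed FPKM was 152 with DMSO and 45.6 with baicalin in the basal-labelled libraries and 179 and 92.5 in the luminal-labelled libraries, with median log2 changes of -1.91 and -0.83. Mcm5 (ENSMUSG00000005410, GRCm38 chr8:75109569-75128439, plus strand) stood at 21.2 FPKM with DMSO and 2.62 with baicalin in the basal-labelled libraries, and at 31.1 and 14 in the luminal-labelled ones. The basal-labelled baicalin library lay far below the other libraries. The fold was 8.10 (7.02 to 9.39) in the basal-labelled pair and 2.22 (2.07 to 2.39) in the luminal-labelled pair, and only 38 of all genes kept changed more steeply downward than Mcm5 in the first.

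Mcm6 had 38.0 and 7.80 FPKM in the basal-labelled pair and 40.6 and 17.9 in the luminal-labelled pair, the largest log2 change of the 44 in the latter, at -1.14. Mcm3 went from 22.4 to 5.28 and from 26.9 to 14.1 FPKM, and Mcm4 from 30.5 to 7.31 and from 32.2 to 18.3. In these 3 subunits both baicalin libraries lay below both DMSO libraries, and the basal-labelled one was the lowest. Mcm2, at 12.3 and 4.57 FPKM and at 11.6 and 7.01, was the lowest subunit in every library but the basal-labelled baicalin one, where Mcm5 was lower.

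Mcm7 was lower in both pairs, but by less than the other subunits in the basal-labelled one. It stood at 27.9 FPKM with DMSO and 18.0 with baicalin in the basal-labelled libraries, a log2 change of -0.61, and at 36.2 and 21.1 in the luminal-labelled libraries, a log2 change of -0.75. Its share of the summed FPKM of the 6 subunits was 18.3% and 39.5% in the basal-labelled pair and 20.2% and 22.8% in the luminal-labelled pair, whereas that of Mcm5 was 13.9% and 5.75%, then 17.4% and 15.1%. The highest subunit stood 3.09-fold above the lowest in the basal-labelled DMSO library and 6.86-fold above it with baicalin. Mcm7 hosts the miRNA genes Mir25 and Mir93, both listed at 0, and has a processed pseudogene, Gm5487, at 0.0229 to 0.12 FPKM.

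**Figure D3:**
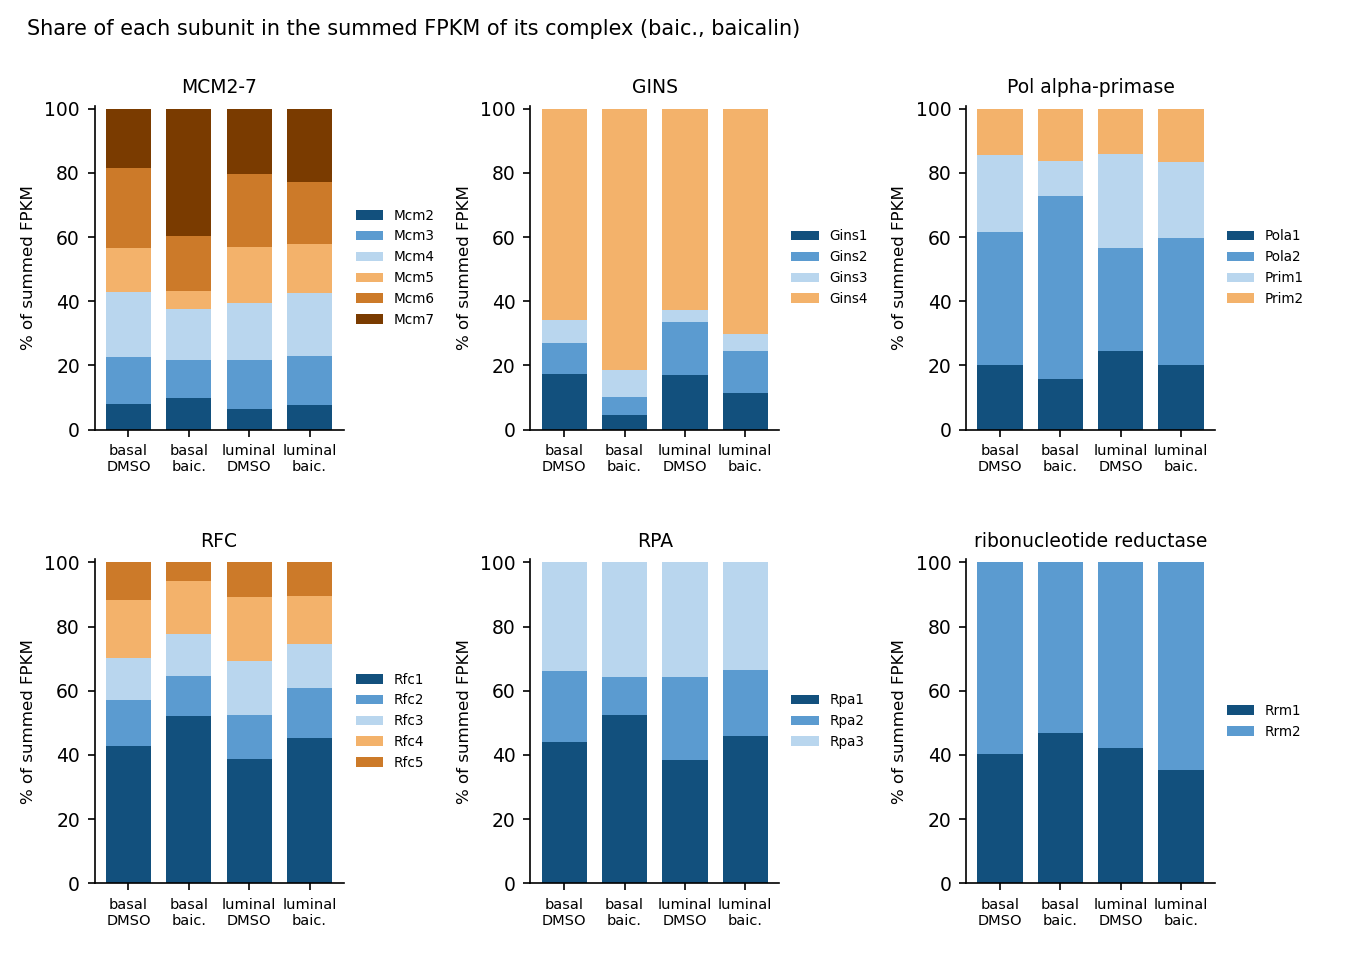
Share of each subunit in the summed FPKM of its complex (bars from 0 to 100%) in the 4 libraries, 1 library per bar, for MCM2-7, GINS, DNA polymerase alpha with primase, RFC, RPA and ribonucleotide reductase. The make-up of MCM2-7 shifted most in the basal-labelled baicalin library, where Mcm7 held 39.5% and Mcm5 5.75%.

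Helicase activation showed a median log2 change of -1.04 in the basal-labelled and -0.59 in the luminal-labelled pair, and 4 of its 6 genes fell past the threshold in the former. Cdc45, which joins the MCM ring to form the active helicase, stood at 6.68 FPKM with DMSO and 1.15 with baicalin in the basal-labelled libraries, 5.79-fold lower (4.57 to 7.42), and at 5.66 and 2.87 FPKM in the luminal-labelled ones. Mcm10, which helps to start the helicase, had 3.64 and 1.24 FPKM and then 3.98 and 2.73. The 4 GINS subunits, which sit in the same helicase, did not move alike. Gins1 was 6.62-fold lower in the basal-labelled pair, at 5.38 and 0.813 FPKM, on 162 and 25 fragments, so its interval ran from 4.33 to 10.5. Gins2 went from 3.06 to 0.987 FPKM.

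Gins4 remained high beside them, at 20.5 and 14.4 FPKM in the basal-labelled and 21 and 15.4 in the luminal-labelled libraries. It held 65.7% of the summed GINS FPKM in the basal-labelled DMSO library and 81.6% with baicalin. Gins3 was the only one of the 44 whose interval held 1 in a baicalin comparison, at 1.28 and 1.18 FPKM in the luminal-labelled libraries, 1.08-fold lower (0.759 to 1.55) on 67 and 66 fragments. A difference of that size was not detectable at this depth. In the basal-labelled libraries Gins3 stood at 2.25 and 1.46 FPKM, 1.55-fold lower (1.16 to 2.08).

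Licensing factors split in a similar way, with medians of -0.97 and -0.43. Orc1, an ATP-binding subunit of the origin recognition complex, stood at 3.88 and 0.638 FPKM in the basal-labelled libraries, 6.09-fold lower (4.42 to 8.54), and at 3.76 and 2.35 FPKM in the luminal-labelled libraries. Cdc6, which recruits the MCM ring with Cdt1, went from 2.59 to 0.735 and from 3.00 to 1.36 FPKM. Orc1 and Cdc6 were the lowest of the 44 in the basal-labelled baicalin library. Orc6 went from 12.3 to 6.21 and from 12 to 9.18 FPKM, and Cdt1 only from 7.57 to 5.26 and from 7.5 to 6.52. For Cdt1, whose protein is destroyed once S phase begins, the luminal-labelled fold of 1.15 had an interval of 1.005 to 1.32.

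The polymerases and primase had medians of -1.10 and -0.58, and in the basal-labelled pair the 6 genes of primer synthesis and of DNA polymerase epsilon changed more than the 3 of DNA polymerase delta. Prim1, the catalytic subunit of primase, stood at 7.31 and 1.06 FPKM in the basal-labelled libraries and at 10.5 and 4.42 in the luminal-labelled ones. Both baicalin libraries were below both DMSO libraries. The folds were 6.91 (5.48 to 8.80) and 2.38 (2.09 to 2.70), the latter the largest plain ratio in the luminal-labelled pair. Pola1, the catalytic subunit of polymerase alpha, went from 6.15 to 1.5 and from 8.76 to 3.74 FPKM. The other primase and polymerase alpha subunits changed less, Prim2 from 4.45 to 1.54 and from 5.02 to 3.08 FPKM and Pola2 from 12.8 to 5.41 and from 11.5 to 7.39.

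Pole, the catalytic subunit of polymerase epsilon, which copies the leading strand, stood at 4.87 and 0.742 FPKM in the basal-labelled libraries, 6.56-fold lower (5.57 to 7.77), and at 5.46 and 3.06 in the luminal-labelled libraries. Its partner Pole2 went from 4.16 to 1.15 and from 4.43 to 2.86 FPKM. Polymerase delta, which copies the lagging strand and also serves in repair, changed less in the basal-labelled pair. Pold1 went from 6.81 to 4.15 and from 5.88 to 3.78 FPKM, Pold2 from 13.2 to 9.23 and from 15.2 to 12.1, and Pold3 from 12.2 to 7.47 and from 11 to 6.41. None of the 3 delta genes passed the threshold in either pair, and their summed FPKM was 32.2 and 20.9, then 32.0 and 22.3, where that of the 2 epsilon genes was 9.03 and 1.89, then 9.89 and 5.92.

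The sliding clamp and its loader had medians of -0.70 and -0.58, the former the smallest change in the basal-labelled pair among the groups of 6 or more genes. Pcna (ENSMUSG00000027342, GRCm38 chr2:132249162-132253314, minus strand) was the highest of the 44 in every library, at 70.8 and 38.8 FPKM in the basal-labelled and 75.6 and 48.0 in the luminal-labelled libraries. Its folds were 1.83 (1.73 to 1.93) and 1.57 (1.49 to 1.66). Of the loader subunits, Rfc5 alone passed the threshold, in the basal-labelled pair, at 5.24 and 1.62 FPKM, with 5.60 and 3.59 in the luminal-labelled libraries. Rfc1, the large subunit, had the smallest change of the 44 in the basal-labelled pair, at 19.1 and 14.6 FPKM, 1.31-fold lower (1.23 to 1.39). It held 42.8% of the summed RFC FPKM in the basal-labelled DMSO library and 52% with baicalin. Rfc2, Rfc3 and Rfc4 were 1.81-, 1.56- and 1.74-fold lower in the basal-labelled pair and 1.32-, 1.84- and 1.98-fold lower in the luminal-labelled pair.

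The RPA genes, whose trimer coats single-stranded DNA, were uneven in the basal-labelled pair. Rpa2 stood at 8.95 and 2.69 FPKM there and at 13.9 and 6.55 in the luminal-labelled libraries. Rpa1 had 17.8 and 11.8, then 20.5 and 14.6 FPKM, and Rpa3 had 13.8 and 8.07, then 19.1 and 10.7. The fold of Rpa2 was 3.33 (2.79 to 4.00) in the basal-labelled pair, above the 1.51 (1.41 to 1.62) of Rpa1 and the 1.71 (1.42 to 2.06) of Rpa3, with intervals that did not overlap. Its share of the RPA sum was 22.1% with DMSO and 11.9% with baicalin.

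Both genes of Okazaki fragment maturation fell past the threshold in the basal-labelled pair. Lig1, which seals the nicks between fragments, stood at 16.9 and 3.82 FPKM in the basal-labelled libraries and at 21.2 and 9.34 in the luminal-labelled libraries, folds of 4.42 (3.92 to 5.0) and 2.27 (2.09 to 2.47). Fen1, which trims their flaps, went from 14.5 to 5.09 and from 20.6 to 11.5 FPKM. Tipin, the partner of Timeless in fork protection, went from 19.5 to 7.94 and from 21.7 to 11.7 FPKM.

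Nucleotide supply showed the lowest median of the 10 groups in the basal-labelled pair, -1.95, with all 5 genes past the threshold, and -0.59 in the luminal-labelled pair, with none. Rrm2 (ENSMUSG00000020649, GRCm38 chr12:24708241-24714146, plus strand), the S phase subunit of ribonucleotide reductase, stood at 26.6 FPKM with DMSO and 4.48 with baicalin in the basal-labelled libraries and at 32.0 and 21 in the luminal-labelled libraries. The basal-labelled baicalin library stood far below the other libraries. The folds were 5.93 (5.19 to 6.81) and 1.52 (1.41 to 1.64). Rrm1, the large subunit of the same enzyme, went from 18.0 to 3.94 and from 23.4 to 11.4 FPKM, so Rrm1 was the more lowered of the pair in the luminal-labelled libraries and the less lowered in the basal-labelled ones.

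Tk1, the salvage enzyme thymidine kinase, stood at 9.32 and 1.52 FPKM in the basal-labelled and at 8.88 and 5.56 in the luminal-labelled libraries, folds of 6.14 (5.19 to 7.31) and 1.60 (1.44 to 1.77). Tyms, which makes thymidylate, went from 5.31 to 1.45 and from 5.42 to 2.58 FPKM. Dut, which removes dUTP, went from 17.2 to 4.73 and from 19.7 to 13.5 FPKM. The 2 chromatin assembly genes, subunits of the factor that deposits histones behind the fork, fell past the threshold in the basal-labelled pair. Chaf1a went from 6.90 to 1.75 and from 6.87 to 4.03 FPKM, and Chaf1b from 8.22 to 3.38 and from 10.1 to 6.01.

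The fall was larger in the basal-labelled pair for 39 of the 44 genes, and over all genes kept the change in the luminal-labelled pair was the higher one in 45.2%. The median difference between the 2 log2 changes was 0.53. Dividing the luminal-labelled by the basal-labelled baicalin to DMSO ratio gave an interval above 1 for 33 genes, where 22.3% of all genes with a fragment in each library did, around 1 for 10, and below 1, where 25.7% of all such genes did, for Mcm7 alone, at 0.905 (0.832 to 0.986). These intervals use a normal approximation on the log scale and cover counting error only, and a difference of response between the labels was not tested. Intervals narrow with more fragments, and the shares were not worked out for genes of similar level. The widest gaps were those of Rrm2, at 3.90 (3.35 to 4.54), Tk1, at 3.85 (3.16 to 4.69), Orc1, at 3.81 (2.63 to 5.52), Pole, at 3.68 (3.05 to 4.44), and Mcm5, at 3.64 (3.11 to 4.27). The genes that were not more lowered in the basal-labelled pair were Mcm7, Rfc3, Rfc4, Pold3 and Rpa3.

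**Figure D4:**
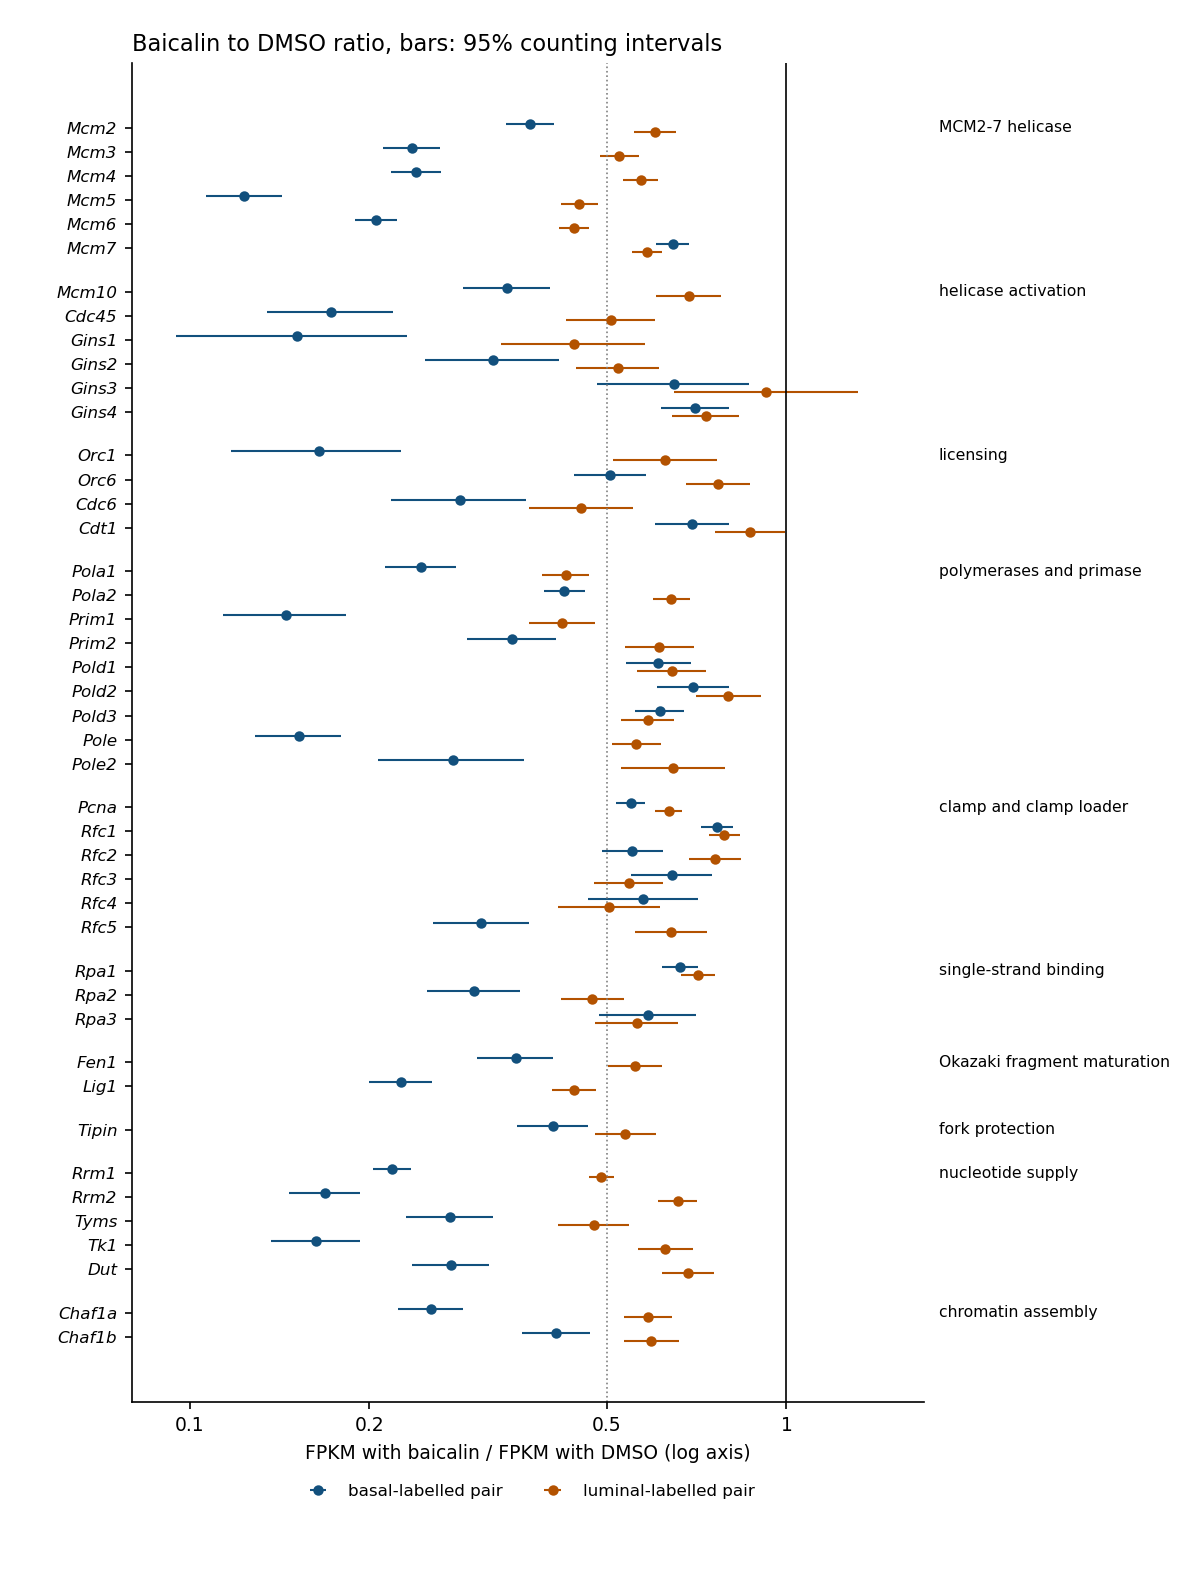
Ratio of baicalin to DMSO FPKM (log axis) for each of the 44 genes in the basal-labelled pair (blue) and the luminal-labelled pair (orange), with 95% counting intervals; the solid line marks a ratio of 1 and the dotted line 0.5. Blue points run from 0.123 (Mcm5) to 0.766 (Rfc1), and orange points crowd between 0.421 (Prim1) and 0.923 (Gins3).

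The order of the changes was partly shared. Across the 44 genes the log2 changes of the 2 pairs had a Pearson r of 0.632 and a Spearman rho of 0.609, a description across genes, which are not independent replicates. The level with DMSO and the plain ratio were not ordered alike, with a Spearman rho of 0.082 in the basal-labelled and -0.099 in the luminal-labelled pair. The SD of the log2 ratios over the 44 genes was 0.77 in the basal-labelled pair and 0.286 in the luminal-labelled pair.

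With DMSO, the 2 labels differed little for these genes. The luminal-labelled library was higher for 33, where 52.5% of all genes were, and lower for 11, with a median log2 difference of 0.14, luminal-labelled over basal-labelled, and 0 of the 44 lay beyond 1 in either direction, where 4.71% of all genes were higher and 3.86% lower by that much. Scaled to TPM, 24 were higher and 20 lower, and centred on the median ratio 37 were higher and 7 lower, so the median kept its sign, at 0.05 with TPM and 0.19 with centring, while the count of genes on each side depended on the scaling. The widest difference upward was that of Gins2, at 3.06 and 5.51 FPKM in the basal-labelled and luminal-labelled library, and the widest downward was that of Gins3, at 2.25 and 1.28 FPKM. With baicalin, 41 of the 44 were higher in the luminal-labelled library, where 45.2% of all genes were, 14 of them by more than 1, where 5.24% of all genes were, with a median of 0.71. The largest differences were those of Mcm5, at 2.05, and Rrm2, at 2.01. Pold1, Pold3 and Gins3 were lower in the luminal-labelled library, the lowest log2 difference being -0.19.

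Other genes of the pathway were set beside the 44 in 7 lists with 107 genes in all. Of 23 further genes of origin firing and the fork, 22 were lower in the basal-labelled pair and 20 in the luminal-labelled pair. Over all genes kept, 49.1% and 54.4% were lower. Past the threshold were 9 and 4 of the list, where 3.33% and 1.59% of all genes fell past it. The medians of the list were -0.78 and -0.53. Pclaf, a partner of Pcna, stood at 13.9 and 1.01 FPKM in the basal-labelled libraries and at 19.0 and 6.99 in the luminal-labelled ones. The topoisomerase Top2a went from 41.7 to 5.17 and from 43.9 to 21.1 FPKM, and the checkpoint mediator Clspn from 6.58 to 0.563 and from 6.56 to 2.62. Pold4, the small subunit of polymerase delta, was singled out after its values were seen because it was higher with baicalin in both pairs, at 16.3 and 32.2 and at 16.8 and 23.8 FPKM, while Pold1, Pold2 and Pold3 were lower.

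Of 10 further chromatin genes, 9 were lower in the basal-labelled pair and 10 in the luminal-labelled pair, with medians of -0.79 and -0.65. Over all genes kept, 49.1% and 54.4% were lower. Uhrf1, which couples DNA methylation to replication, stood at 22 and 2.81 FPKM in the basal-labelled libraries and at 25.3 and 11.2 in the luminal-labelled libraries. The histone chaperone Asf1b went from 7.71 to 0.907 and from 8.57 to 3.63 FPKM. Of 8 further licensing genes only Gmnn, the inhibitor of Cdt1, passed the threshold, in the basal-labelled pair, at 16.0 and 5.99 FPKM, with 17.5 and 10.2 in the other. Over all genes, 3.33% fell past the threshold in the basal-labelled pair. Of this list 5 genes were lower in the basal-labelled and 6 in the luminal-labelled pair, with medians of -0.18 and -0.19.

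Nucleotide synthesis outside the 5 genes above moved less. Of 25 further genes, mostly of purine and pyrimidine synthesis, 21 were lower in the basal-labelled pair and 19 in the luminal-labelled pair. Over all genes kept, 49.1% and 54.4% were lower. The medians of the list were -0.23 and -0.31. Among those past the threshold were Shmt1, an enzyme of folate metabolism, at 10.2 and 4.15 FPKM in the basal-labelled pair, and Samhd1, which degrades dNTPs, at 13.4 and 6.11 FPKM in the luminal-labelled pair. Rrm2b, the p53-driven subunit of ribonucleotide reductase, was singled out after its values were seen, at 2.75 and 4.71 FPKM in the basal-labelled and 1.86 and 2.23 in the luminal-labelled libraries, higher with baicalin in both while Rrm2 was lower.

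Genes of mitochondrial DNA replication and of repair and translesion polymerases went both ways with baicalin. Over all genes kept, 49.1% were lower in the basal-labelled and 54.4% in the luminal-labelled pair. Of the 11 genes of mitochondrial DNA replication, 5 were lower in the basal-labelled and 6 in the luminal-labelled pair. Their medians were 0.25 and -0.12, and none passed the threshold in either. Of the 10 repair and translesion polymerase genes, 5 and 7 were lower, with medians of 0.08 and -0.11. Only Polq passed, at 2.10 and 0.433 FPKM in the basal-labelled pair.

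Among 20 genes of S phase control, 13 were lower in the basal-labelled pair and 17 in the luminal-labelled pair, and 7 and 3 were higher. Over all genes kept, 49.1% and 54.4% were lower. Of the 20, 8 and 2 fell past the threshold, where 3.33% and 1.59% of all genes did. The medians of the list were -0.635 and -0.472, and the fallers named next are among its most lowered genes. Mki67, the proliferation marker, stood at 54.0 and 4.06 FPKM in the basal-labelled libraries and at 68.6 and 25.9 in the luminal-labelled ones. Cyclin A2, Ccna2, went from 26.5 to 2.15 and from 29.8 to 12.5 FPKM, and the cyclin E gene Ccne2 from 3.78 to 0.451 and from 3.76 to 1.44. The repressor genes E2f7 and E2f8, which are themselves E2F targets, were at 2.56 and 0.268 and at 3.88 and 0.489 FPKM in the basal-labelled pair. Cdkn1a, which encodes the CDK inhibitor p21, was the only gene of this list higher by more than 1, and it was so in both pairs, at 29.0 and 106 and at 24.7 and 72.8 FPKM, where 2.15% and 2.37% of all genes were.

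**Figure D5:**
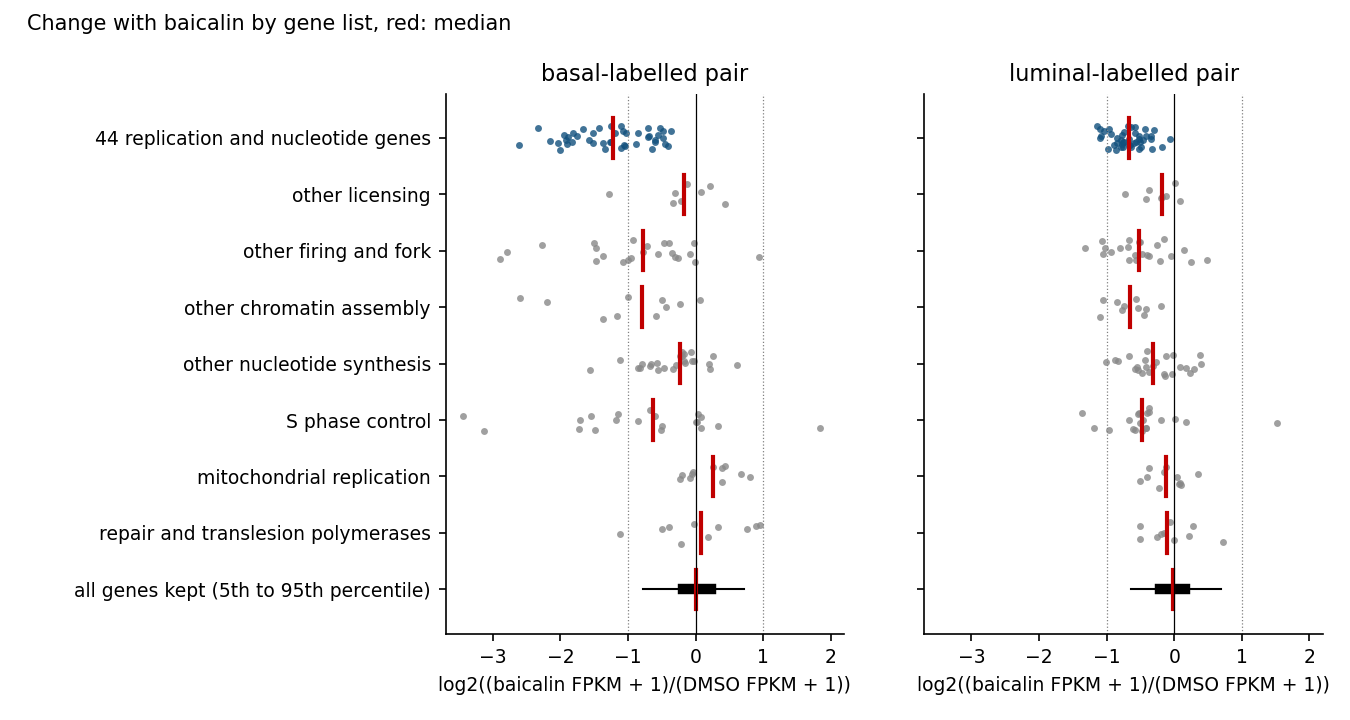
Log2 change with baicalin for the 44 genes (blue) and 7 other lists (grey), 1 point per gene, in the basal-labelled pair (left) and the luminal-labelled pair (right); red bars are medians, and the bottom row gives the median, the middle 50% (thick) and the 5th to 95th percentile (thin) of all genes kept. The medians of the 44 are -1.23 and -0.67, and those of mitochondrial replication 0.25 and -0.12.

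Markers of cell type also changed with baicalin, some down and some up. Beside the counts below, 49.1% of all genes kept were lower in the basal-labelled pair and 54.4% in the luminal-labelled pair. In the basal-labelled pair 9 of 10 basal markers were lower with baicalin, their summed FPKM being 1829 and 532, with Krt5 at 128 and 3.01 and Trp63 at 6.02 and 0.306. In the luminal-labelled pair 4 of the 10 were lower and 6 higher, the sums being 5379 and 7293. Luminal markers summed to 4413 and 3060 in the basal-labelled pair, with 7 of 10 lower, and to 1271 and 1075 in the luminal-labelled pair, with 8 of 10 lower. Hormone-sensing luminal markers summed to 61.0 and 28.2 FPKM in the basal-labelled pair and to 53.3 and 83.3 in the luminal-labelled pair. In each pair 5 of 6 were lower, and in the luminal-labelled pair the exception was Ly6a, at 27.95 and 78.1 FPKM. Fibroblast markers summed to 3.07 to 11.2 FPKM, with 6 of 7 lower in the basal-labelled and 1 of 7 in the luminal-labelled pair, and endothelial markers to 0.876 to 3.46, with 1 and 0 of 5 lower. Immune markers summed to 5.94 to 54.5 FPKM. The lysosomal gene Cd68 stood at 7.49 and 51.5 FPKM in the basal-labelled and 4.44 and 13.7 in the luminal-labelled pair, with the pan-leukocyte gene Ptprc at 0.0138 FPKM or less and the T cell gene Cd3e listed at 0 in all libraries but one, where it had 0.038. Of the 4 immune markers above 0 in all libraries, 3 were lower in the basal-labelled and 0 in the luminal-labelled pair. The part of these shifts in the fall of the 44 genes was not tested.

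Shared sequence limits some single values. Cdc6, Mcm7, Pcna, Rfc5, Rrm2 and Tyms have a nearly identical stretch elsewhere in the annotation, at 95% identity or more over at least 200 bases. The processed pseudogenes among these copies stood below 0.5 FPKM in each library. Tyms, at 1.45 to 5.42 FPKM, also shares a stretch of 355 to 358 bases with genes of similar or higher level, Reep3 at 18.3 to 25.9 FPKM, Map3k2 at 13.5 to 18.5 and Wdr59 at 4.05 to 5.28. How fragments of shared stretches were split is not known, and the values of Tyms are uncertain to that extent. Exons of Chaf1a, Gins2 and Fen1 overlap those of a gene on the opposite strand over 52.5%, 67.3% and 78.8% of their length, and the sources used here do not say whether strand was counted. If it was not, fragments of Chaf1a and Ubxn6, or of Gins2 and Gse1, cannot be told apart. Ubxn6 stood at 6.56 and 9.06 FPKM in the basal-labelled pair and Gse1 at 5.88 and 7.42, both higher with baicalin. Rfc4 shares 12.7% of its exon length with Eif4a2 on the opposite strand. Eif4a2 stood far higher, at 59.0 and 95.6 FPKM in the basal-labelled and 66.5 and 58.6 in the luminal-labelled pair. The values of Rfc4, among them its smaller fall in the basal-labelled pair, are uncertain to that extent. Rfc5 shares 10.7% with Wsb2 and Mcm7 7.3% with Ap4m1, also on the opposite strand.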

How the data were processed

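RNA was measured by sequencing in 4 libraries, 1 per condition. The authors enriched mRNA with oligo (dT), made libraries with a stranded kit, mapped them with HISAT2 to GRCm38 and, with featureCounts v1.5.0 on the Ensembl release 94 annotation, deposited FPKM values for each gene. The submitters' processing notes also name Bowtie 0.12.2 and mm8, without a role.

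Gene positions and exon lengths came from GENCODE mouse release 21. Multiplied by exon length, the FPKM of genes with 1 to 20 fragments fell on whole fragments, within 0.05, for 98.7% to 98.9% of genes, which gave the depths. Of the 44 genes, 43 came out whole in all 4 libraries, and the fragments of Pola2 were rounded. A gene was kept where none of the 4 libraries listed it at 0. Unless another setting is named, log2 changes rest on a pseudocount of 1 FPKM and counts on a threshold of 1 on the log2 scale. Folds and ratios have no pseudocount, and their intervals are exact Clopper-Pearson intervals at 95%. Only the ratio of the 2 baicalin to DMSO ratios has an interval from a normal approximation. No test between conditions was possible with 1 library each. All 44 genes were named, and from each other list those past the threshold or, failing that, the 3 most changed could be, except 1 gene of nucleotide synthesis that is not reported here. The 44 genes, the lists and the threshold were chosen with earlier results of these data known. Promoters came from RefSeq (GRCm38.p6), and copies were found with BLAST 2.17.0. The code was tested on simulated data. Intervals came from scipy 1.17.1 and plots from matplotlib 3.10.9, on tables handled with pandas 2.3.3 and numpy 2.4.6 under Python 3.11.15. The alternatives were other pseudocounts, filters, scalings and thresholds, and leaving out genes with a copy.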

Additional observations from a re-analysis of the deposited data

Results flagged for a closer look

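None of the 44 genes moved in opposite directions in the 2 pairs. Of the 107 other genes of the pathway, 7 had a baicalin to DMSO ratio on one side of 1 in the basal-labelled pair and on the other side in the luminal-labelled pair, with both counting intervals clear of 1. The share of all genes kept that met this rule was not worked out, so the count says nothing about these lists as a set. The difference between the pairs was not tested, and each pair is 1 library against 1. Dividing the ratio in the luminal-labelled pair by that in the basal-labelled pair gave 0.525 for Orc3, a subunit of the origin recognition complex, at 5.83 and 8.24 FPKM with DMSO and baicalin in the basal-labelled and 7.13 and 5.29 in the luminal-labelled libraries. It gave 0.599 for Prps2, of nucleotide precursor synthesis, 0.562 for Rb1, the retinoblastoma gene, 0.445 for Polg2, the accessory subunit of the mitochondrial polymerase, and 0.629 for Twnk, the mitochondrial helicase. All of these were higher with baicalin in the basal-labelled pair and lower in the luminal-labelled pair. The opposite held for topoisomerase Top1, at 1.49, and CTP synthase Ctps, at 1.60.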

How the results depend on the processing

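All 44 genes were lower with baicalin in both pairs after scaling to TPM and after centring on the median ratio. A pseudocount cannot turn a direction, and a filter only drops genes, so the other settings bear on sizes and counts alone. The median log2 change in the basal-labelled pair was -1.515 with a pseudocount of 0.1, -1.595 with none and -1.46 after scaling to TPM, in which a pseudocount of 1 weighs less because TPM are the larger numbers. In the luminal-labelled pair 10 genes were past the threshold with a pseudocount of 0.1, 10 with none and 8 with TPM. With a threshold of 2, 5 genes passed in the basal-labelled and 0 in the luminal-labelled pair, and with a threshold of log2(1.5), 27 passed in the luminal-labelled pair. Between the labels, a threshold of log2(1.5) left 1 gene past it with DMSO and 24 with baicalin, and a threshold of 2 left 2 with baicalin. There, 22 genes passed with a pseudocount of 0.1 and 22 with none, and the medians were 1.015 and 1.07. The matching shares of all genes were not worked out for these other settings. These counts therefore show only how many of the 44 passed, not whether the 44 stood out. Of the values of single genes in the baicalin comparisons, 31 moved outside the counting interval of the reported value with TPM, 32 with a pseudocount of 0.1, 37 with none and 0 with centring. No paired analysis was possible because each condition has 1 library, and for the same reason no replicate could be left out. Counting error was small beside most changes, but the spread between cultures is unknown.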
